A study of Mus musculus with 6 samples.

Results

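The mitochondrial ribosomal protein genes were examined in the cochlear modiolus of mice with degenerated spiral ganglion neurons (SGNs). The rule took every protein-coding gene whose symbol begins with Mrpl or Mrps followed by a digit, and it found 78 of 22028 annotated protein-coding genes. Of these, 49 were Mrpl and 29 were Mrps genes. Counts of the transcripts listed in the deposited table were summed per gene. At least 1 transcript was listed for 65 members, and 63 passed the filter on low counts, among 14118 genes tested in all. Mrpl44 and Mrps22 were listed and did not pass. No transcript was listed for the other 13, which were Mrpl1, Mrpl9, Mrpl34, Mrpl41, Mrpl43, Mrpl46, Mrpl49, Mrps14, Mrps25, Mrps26, Mrps27, Mrps28 and Mrps30, and they were not analysed here. The table listed 154 of the 343 annotated transcripts of the members (44.9%), and every transcript of only 4 of them (Mrpl19, Mrpl39, Mrpl50 and Mrps31), so that a value describes the listed part of a gene.

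The mitochondrial ribosome makes the few respiratory chain proteins that mitochondrial DNA encodes. Its RNAs come from mitochondrial DNA, while all its proteins are encoded in the nucleus, made in the cytosol and imported, and many of them have no counterpart in bacteria. The ribosome is of interest in the inner ear because aminoglycosides bind the decoding site of the bacterial small subunit, because variants of the mitochondrial 12S rRNA gene predispose to deafness from these drugs, and because MRPS2 and MRPS7 are hearing loss genes in humans. By structure, Mrps18a and Mrps30 belong to the large subunit despite their names, and Mrps36 has been reassigned to the alpha-ketoglutarate dehydrogenase complex. With these assignments 51 members belonged to the large and 26 to the small subunit.

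The 3 control libraries came from C57BL/6 mice given saline. The 3 degenerated libraries came from C57BL/6 mice given 1 g/kg kanamycin and 0.4 g/kg furosemide, which destroys the hair cells, and taken on day 30. The mice were 8-week-old males when the model was established, and no gene was altered in either group. The day on which the control mice were taken was not found. The labels call the cells ganglion neurons, whereas the methods name the whole modiolus, the bony core of the cochlea. All 12 neuron markers were listed in the deposited table. So were markers of Schwann cells (8 of 10), macrophages (6 of 10), erythroid cells (5 of 8), neutrophils (6 of 8) and bone (7 of 10). Being listed does not mean being expressed, and the neuron marker Syt1 did not pass the filter on low counts. In such bulk tissue, fewer cells of a type and less RNA per cell cannot be told apart. Nothing in the labels says that replicates were separate animals, and p-values then measure only the spread between these libraries.

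Promoters of the members are shown first, since their transcription is classically linked to the factors NRF1, GABPA (of the ETS family) and YY1. RefSeq (GRCm38.p6) gave a promoter for 69 of the 78 members, from 250 bases before to 50 after the start. Windows were searched on both strands for GCATGCGC (NRF1), CCGGAAG (ETS) and AAGATGGCG (YY1), none of which contains another, although the ETS and YY1 motifs can share AAG. The stretch from 120 bases before the start is printed for Mrpl20 and Mrps9, the members with the smallest p for a lower level, and for Mrps18a and Mrpl35, chosen after their values were seen because they hold a motif, in capitals.
Mrpl20, chr4:155802758-155802927, plus strand: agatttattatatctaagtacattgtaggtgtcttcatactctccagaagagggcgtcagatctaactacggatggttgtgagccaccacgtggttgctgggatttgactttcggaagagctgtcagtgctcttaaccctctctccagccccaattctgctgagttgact
Mrps9, chr1:42851113-42851282, plus strand: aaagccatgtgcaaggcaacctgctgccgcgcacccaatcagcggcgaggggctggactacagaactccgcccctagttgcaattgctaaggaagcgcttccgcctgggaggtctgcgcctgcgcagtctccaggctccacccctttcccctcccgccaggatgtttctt
Mrps18a, chr17:46110884-46111053, plus strand: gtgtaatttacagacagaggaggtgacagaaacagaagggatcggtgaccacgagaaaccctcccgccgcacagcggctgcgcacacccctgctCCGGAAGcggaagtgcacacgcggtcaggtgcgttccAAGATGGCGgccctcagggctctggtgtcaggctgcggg
Mrpl35, chr6:71823735-71823904, minus strand: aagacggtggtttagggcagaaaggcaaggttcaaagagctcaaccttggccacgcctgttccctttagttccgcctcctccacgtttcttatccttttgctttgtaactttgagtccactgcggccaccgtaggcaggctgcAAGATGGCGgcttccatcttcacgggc

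In Mrps18a the ETS motif lies before the start and the YY1 motif after it, and in Mrpl35 the YY1 motif also follows the start. Mrpl20 and Mrps9 held none of the 3 motifs in the searched window. Neither did Mrps15, Mrpl28, Mrpl55 and Mrps2, the members next by p for a lower level. A gene was counted when any of its promoters held the motif. The ETS motif was held by 26 of 69 members (37.7%). It was held by 18.2% of the 9479 tested protein-coding genes with a promoter and by 9.93% of all 27025 genes with one. The YY1 motif stood in 8 members (11.6%), against 3.15% and 1.64%. The NRF1 motif also stood in 8 (11.6%), against 5.63% and 3.05%. At least 1 motif was present in 36 members (52.2%) and in 24.8% of tested protein-coding genes. These are matches of letters, not sites shown to be bound.

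Degenerated libraries differed little from controls in these genes. The criteria for a call were an unadjusted p under 0.01 with a log2 fold change beyond 0.2. They were taken over from another comparison of the study, of knockout with wild-type mice, since none was found stated for this one. By them edgeR's quasi-likelihood test called 1 of 63 members lower, Mrpl20, where 0.715% of all genes tested were called lower. It called 0 members higher, where 2.01% of all genes were. At a Benjamini-Hochberg adjusted p under 0.05, edgeR called 0 members, with a smallest adjusted p of 0.365, and 0 of all genes, with a smallest of 0.0719. At an unadjusted p under 0.05 it gave 5 members, all lower (Mrpl20, Mrps9, Mrps15, Mrpl28 and Mrpl55). Over all genes 3.6% were lower and 6.08% higher by that rule, and DESeq2 put 1 member, Mrps9, at an adjusted p under 0.05, where it put 2.96% of all genes.

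Most members lay slightly below their control level. The log2 fold change was negative in 45 of 63 (71.4%), against 50.3% of all genes tested. Its median over the members was -0.11, against -0.0034 over all genes. In 11 members (17.5%) every degenerated library was below every control library, where 7.37% of all genes showed this, and in 2 (3.17%), Mrps35 and Mrpl38, every degenerated library was above, where 10.3% of all genes did. Members share libraries and are not independent of each other, so these shares are descriptions.

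**Figure D1:**
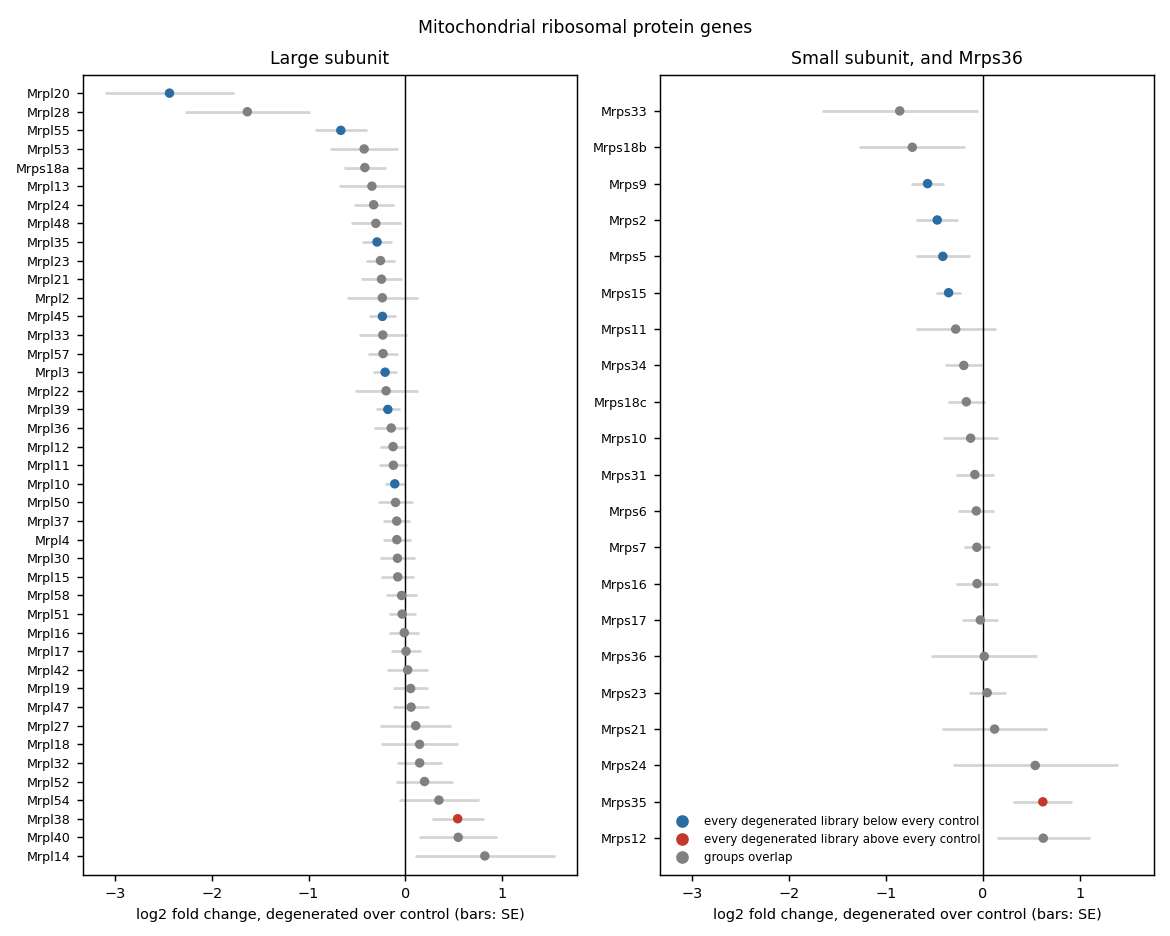
Each point is the log2 fold change of 1 tested member, degenerated over control (x axis), with its standard error as a bar, for 42 members of the large subunit on the left and 20 of the small subunit and Mrps36 on the right. The 11 blue points (all degenerated libraries below all controls) outnumber the 2 red points, and in the grey points the groups overlap.

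Members of each subunit were also counted apart. In the large subunit 30 of 42 tested members had a negative log2 fold change, with a median of -0.12, and in the small subunit 15 of 20 did, with a median of -0.10. The summed CPM, counts scaled to a common library size with TMM factors, of the large subunit differed from control by -9.30% without overlap, and by -5.83% without control replicate 3. That of the small subunit differed by -8.87% with overlapping groups, and by -1.46% without that library. By the median of log2 CPM plus 1, centred on each gene's mean, groups overlapped in both subunits. For the large subunit it was -0.044 to 0.19 in control and -0.10 to -0.019 in degenerated libraries. Among members listed as having a homolog in the bacterial ribosome, 33 of 42 were negative (median -0.14), and groups did not overlap in 9 (21.4%), all lower. Among those listed as without one, 12 of 20 were negative (median -0.061), with 2 (10%) lower and 2 (10%) higher without overlap. Of all genes tested, 7.37% were lower and 10.3% higher without overlap. Mrpl47 (log2 fold change 0.058) was listed as without a homolog, which can be disputed. The difference between these classes was not tested.

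Mrpl20, a large subunit protein with a bacterial counterpart, had the smallest p of the members. Its CPM were 2.38, 1.49 and 5.93 in control and 0.889, 0.423 and 0.474 in degenerated libraries. Every degenerated library lay below every control, but the level was low, with raw counts of 36, 21 and 93 against 13, 6 and 6. The log2 fold change was -2.44 (SE 0.66, adjusted p = 0.365, edgeR), which is 0.185 times the control level. Only 2 of its 6 transcripts were listed, and neither was the principal one. The coding transcript Mrpl20-202 held 28, 19 and 14 counts in control and 6, 0 and 2 in degenerated libraries. The other, Mrpl20-203, annotated for nonsense-mediated decay, held 79 of the 93 counts of control replicate 3. The call depended on single libraries and settings: edgeR no longer called it when any 1 library other than control replicate 2 was left out, and without control replicate 3 the log2 fold change was -1.69.

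Mrps9, in the head of the small subunit, had the next smallest p and far more counts. Its CPM were 32.1, 33.8 and 37.1 in control and 24.4, 23.0 and 22.1 in degenerated libraries. All 3 degenerated libraries were below all controls, and each group was narrow. The log2 fold change was -0.57 (SE 0.17, adjusted p = 0.398, edgeR), or 0.674 times control. Leaving out any 1 library kept it between -0.63 and -0.52. The same direction was seen in its principal transcript Mrps9-201, with counts of 300, 352 and 357 against 195, 240 and 185.

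Mrps15, a small subunit protein that binds the ribosomal RNA directly, had CPM of 72.4, 74.6 and 81.7 in control and 63.1, 54.4 and 61.6 in degenerated libraries. The groups did not overlap, and the log2 fold change was -0.35 (SE 0.13, adjusted p = 0.478, edgeR). Mrpl55, a large subunit protein with a bacterial counterpart, had CPM of 16.4, 12.03 and 15.5 against 10.3, 7.47 and 9.87, again without overlap (log2 fold change -0.67, SE 0.27, adjusted p = 0.506, edgeR). Mrpl28 had a larger fold change on few counts, with CPM of 0.662, 2.33 and 2.74 against 0.410, 0.563 and 0.868. Its groups overlapped, since control replicate 1 was as low as the degenerated libraries, and its 1 listed transcript retains an intron (log2 fold change -1.63, SE 0.65, adjusted p = 0.500, edgeR).

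The hearing loss gene Mrps2 had CPM of 43.5, 34.0 and 46.9 in control and 24.1, 33.5 and 32.2 in degenerated libraries. The groups did not overlap, although control replicate 2 and degenerated replicate 2 nearly touched, and the test did not pass (log2 fold change -0.47, SE 0.22, adjusted p = 0.561, edgeR). The other one, Mrps7, had CPM of 78.8, 74.6 and 91.9 against 84.9, 75.8 and 74.5. Its groups overlapped throughout, with a log2 fold change of -0.061 (SE 0.14).

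The other members complete the 10 with the smallest p for a lower level, and none passed the test. Mrps18a, of the large subunit, had CPM of 53.8, 70.7 and 79.8 in control and 57.5, 54.4 and 40.9 in degenerated libraries, which overlapped (log2 fold change -0.42, SE 0.22). In Mrpl35 the control values of 58.4, 47.4 and 61.6 lay just above the degenerated values of 43.2, 46.1 and 47.4 (-0.29, SE 0.16). Mrpl45, which holds the ribosome at the inner membrane, had 74.5, 74.2 and 87.5 against 60.1, 67.8 and 72.5 (-0.24, SE 0.14). Mrpl3, near the catalytic centre, had 115, 95.4 and 99.4 against 87.6, 86.3 and 94.2 (-0.21, SE 0.12). In the last 3 the groups did not overlap, by margins smaller than the spread within a group.

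The 5 members with the smallest p for a higher level were all low or partly listed, and none passed the test. Mrps35, of the small subunit, had CPM of 1.79, 1.84 and 1.79 in control and 2.87, 3.17 and 2.29 in degenerated libraries (log2 fold change 0.62, SE 0.31, adjusted p = 0.577, edgeR), and no coding transcript of it was listed. Mrpl38 had 8.60, 14.1 and 11.0 against 17.1, 17.0 and 14.8 (0.54, SE 0.27), from 2 transcripts that retain introns. In both, every degenerated library was above every control. In Mrpl40 (0.55, SE 0.40), Mrps12 of the decoding centre (0.63, SE 0.48) and Mrpl14 of the subunit interface (0.82, SE 0.72) the groups overlapped, and Mrpl14 rested on 2 to 17 counts per library.

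**Figure D2:**
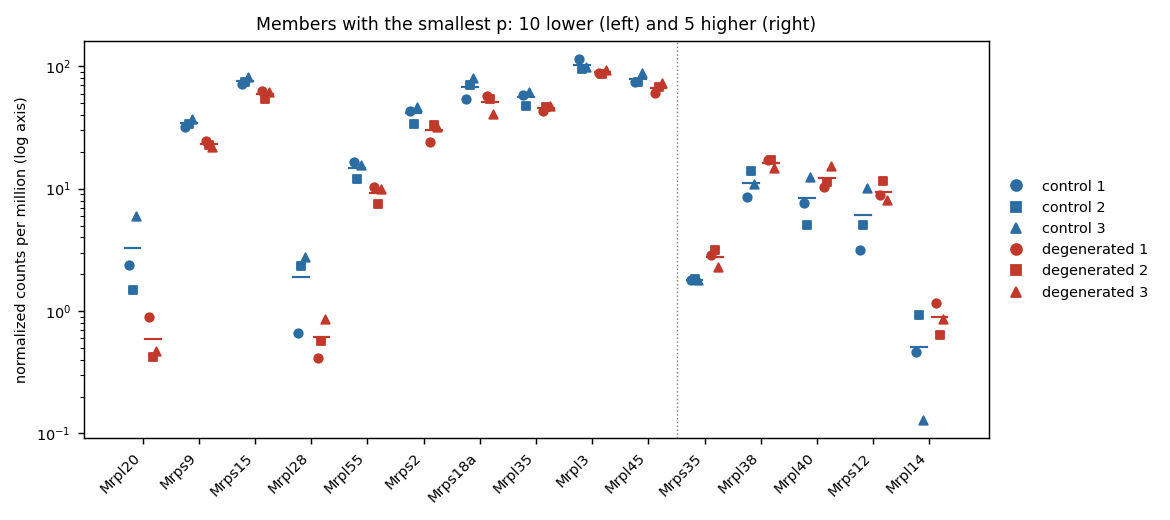
Normalized CPM (log axis) of the 10 members with the smallest p for a lower level and, right of the dotted line, the 5 for a higher level, with a point per library and a line at each group's mean. Mrps9 and Mrps15 form tight separate groups, whereas Mrpl20, Mrpl28 and Mrpl14 are near 1 CPM and spread widely.

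The level of the members varied more between genes than between groups. With CPM divided by the length of the listed transcripts in kilobases, the 40 members with a listed principal transcript had control levels from 2.68 to 216, with a median of 31.9. Mrps6 of the small subunit was highest at 216 per kilobase, followed by Mrpl12 of the flexible stalk at 93.2, Mrpl24 at 85.8, Mrps15 at 80.7 and Mrpl58, a peptidyl-tRNA hydrolase built into the large subunit, at 75.9. Mrps6 shares its locus and strand with Slc5a3, so reads of the pair may be mixed. Its CPM of 153, 160 and 234 in control and 172, 186 and 165 in degenerated libraries overlapped, and only control replicate 3 stood out. Among the 5, only Mrps15 had groups that did not overlap. Mrpl12 had a log2 fold change of -0.13 (SE 0.13), Mrpl24 of -0.33 (SE 0.21), Mrpl58 of -0.040 (SE 0.16) and Mrps6 of -0.067 (SE 0.19).

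The members were also described by level and by which transcripts were listed. Of 47 members with a mean of at least 10 CPM, 38 (80.9%) had a negative log2 fold change, against 52.2% of all genes at that level, with medians of -0.13 and -0.020. In 10 of the 47 (21.3%) every degenerated library was below every control, against 8.77% of all genes at that level, and in 1 (2.13%) every one was above, against 11.3%. Of the 16 members below 10 CPM, 7 were negative, with a median of 0.061. Of the 40 members with a listed principal transcript, 33 (82.5%) were negative and 9 (22.5%) were lower without overlap, and none was higher without overlap. Of the 23 without one, 12 were negative, with 2 (8.70%) lower and 2 (8.70%) higher without overlap. Of all genes tested, 7.37% were lower and 10.3% higher without overlap. The split by level was chosen after the values were seen, and the differences between these classes were not tested.

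**Figure D3:**
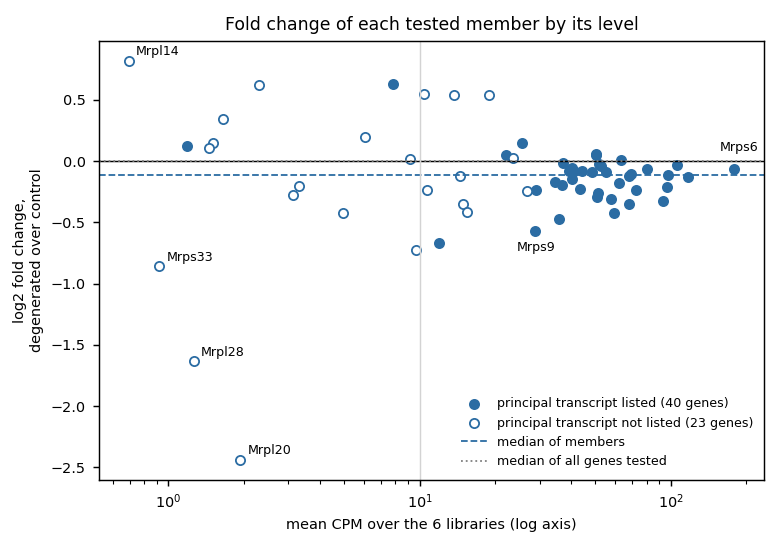
Log2 fold change (y axis) of each of the 63 tested members against its mean CPM over the 6 libraries (log axis), filled where the principal transcript was listed (40) and open where it was not (23). Above 10 CPM, right of the grey line, 38 of 47 points lie below 0, while the widest values, from Mrpl14 to Mrpl20, belong to members near 1 CPM.

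In some members, single transcripts differed between groups more than the gene total did. In a fit of 26065 transcripts, edgeR called 3 of 118 tested member transcripts lower (p under 0.01, log2 fold change beyond 0.2), where 0.652% of all transcripts were called lower, and 0 higher, where 1.14% were. They were Mrpl21-204, Mrpl21-205 and Mrps36-204, and none passed at an adjusted p under 0.05 (smallest 0.416, edgeR).

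Mrpl21, a large subunit protein, had a gene total that overlapped between groups, with CPM of 25.2, 27.0 and 35.2 in control and 27.6, 22.4 and 23.6 in degenerated libraries. Its retained-intron transcript Mrpl21-205 held 193, 207 and 323 counts in control and 53, 27 and 61 in degenerated libraries (log2 fold change -2.25, SE 0.47, adjusted p = 0.416, edgeR). Its decay transcript Mrpl21-204 held 24, 42 and 13 counts against 0, 0 and 0, at least 24.3-fold lower when 3 counts over the degenerated group are taken as the floor. The coding Mrpl21-201 went the other way, with 163, 132 and 216 counts against 350, 291 and 238 (0.86, SE 0.28, adjusted p = 0.611, edgeR), which is not past the criteria. As a share of the gene's listed counts, the coding transcript held 42.9%, 34.6% and 39.1% in control and 86.8%, 91.5% and 79.6% in degenerated libraries. The locus lies opposite Ighmbp2, and whether the counting used strand was not found in the labels or methods.

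In Mrpl3, described after its values were seen, the coding share was lower in degenerated libraries. Its coding transcripts held 48.5%, 66.3% and 93.6% of the listed counts in control and 24.2%, 31.7% and 34.4% in degenerated libraries, so that the groups did not overlap although controls were wide. The principal transcript Mrpl3-201 held 337, 376 and 1166 counts against 172, 213 and 153, and the decay transcript Mrpl3-204 held 878, 445 and 85 against 955, 830 and 752. With only protein-coding transcripts counted, Mrpl3 was the 1 member called lower, with a log2 fold change of -1.40, whereas its sum over all listed transcripts gave -0.21. In the fit over all listed transcripts 0.715% of all genes tested were called lower. The share in the protein-coding fit is not reported here, so the Mrpl3 call has no share of its own fit beside it.

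**Figure D4:**
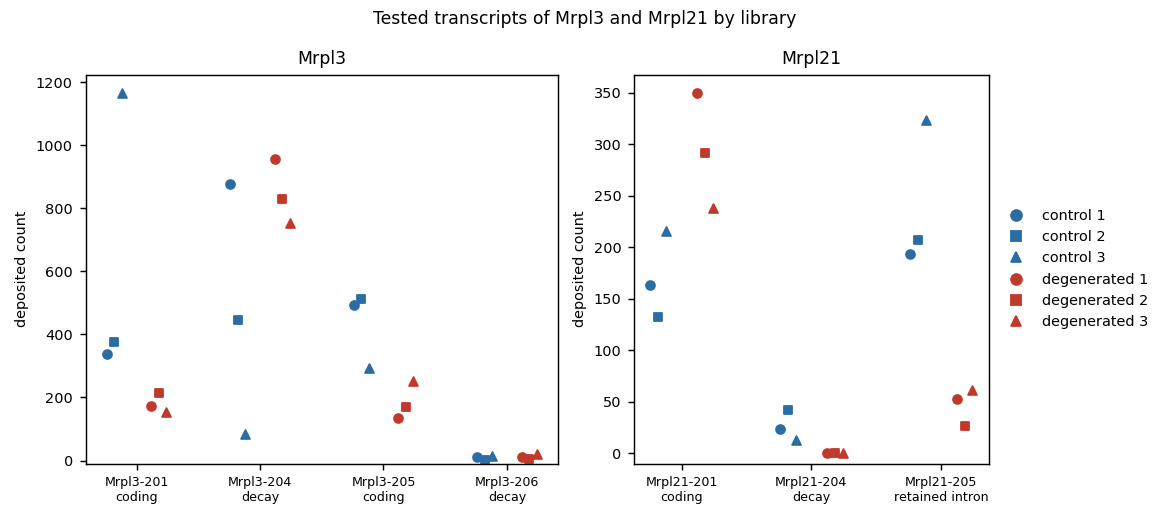
Deposited counts (y axis) of the tested transcripts of Mrpl3 and Mrpl21 in each library, with the annotated transcript type under each name. In Mrpl21 the coding transcript is higher (238 to 350 against 132 to 216) and the retained-intron transcript lower (27 to 61 against 193 to 323) in degenerated libraries, and in Mrpl3 the coding Mrpl3-201 is lower in every degenerated library.

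Mrps36, outside both subunits, had a gene-level log2 fold change of 0.016 (SE 0.55), with CPM of 8.14, 6.72 and 12.5 against 3.97, 8.10 and 15.6. Its non-coding Mrps36-204 held 45, 53 and 105 counts in control and 8, 19 and 15 in degenerated libraries (log2 fold change -2.16, SE 0.53, adjusted p = 0.527, edgeR), and its coding Mrps36-202 held 76, 40 and 87 against 43, 88 and 183. Mrps24, chosen after its values were seen, varied most from library to library without regard to group, with CPM of 6.22, 8.70 and 31.3 in control and 22.6, 38.4 and 6.24 in degenerated libraries, all from transcripts that retain introns. Over all members, protein-coding transcripts took 85.2% to 87.6% of the counts in control and 85.0% to 85.4% in degenerated libraries, ranges that overlap.

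Summed over the 63 tested members, CPM were 2381, 2439 and 2777 in control and 2347, 2277 and 2279 in degenerated libraries. The groups did not overlap, and the degenerated mean differed from control by -9.14%, but the nearest pair differed less than the controls did among themselves. By the members' median of log2 CPM plus 1, centred on each gene's mean, the groups did overlap. That median was -0.023 to 0.20 in control and -0.084 to -0.015 in degenerated libraries. Without control replicate 3 the difference was -4.52%, and with any other library left out it was between -11.8% and -8.66%. That library was the highest of the 6 for 28 of 63 members (44.4%), where it was the highest for 18.6% of all genes tested. It also carried 544 summed CPM of skeletal muscle markers (all 12 listed, Myh2 at 0), against 5.70 to 13.0 in the other libraries. Without it 41 of 64 tested members (64.1%) had a negative log2 fold change. The part of muscle RNA in the member values was not tested.

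Other genes of protein synthesis and respiration were set beside the members. For 71 nuclear respiratory chain genes the sum differed by -15.7% without overlap, and by -11.5% without control replicate 3. Their log2 fold changes were negative in 66, with a median of -0.24, and Ndufs7 and Uqcrc1 were called lower. For 75 cytosolic ribosomal protein genes the sum differed by -16.1% with overlapping groups, and by -10.3% without that library. Of these 60 were negative, with a median of -0.26, and Rpl21 and Rpl38 were called lower. Of all genes tested 0.715% were called lower. Beside these, neuron markers summed to 11765 to 15019 CPM in control and 6816 to 10142 in degenerated libraries, hair cell markers (all 9 listed) to 507 to 732 against 168 to 467, and macrophage markers to 446 to 532 against 537 to 698. Of 11 tested neuron markers 8 were negative, and Calb2 (means of 2738 against 1303 CPM) and Pvalb (784 against 448) were called lower. Tubb3 (471 against 458) was nearly level, while Map2 (80.0 against 84.4), Syp (2.98 against 4.65) and Prph (1.01 against 2.50) had higher means. Of 8 tested hair cell markers 7 were negative, and Ocm (154 against 2.69) and Slc26a5 (11.2 against 0.315) were called lower. Myo7a (68.7 against 76.1) had a higher mean. The higher macrophage sum was carried by C1qb (means of 183 against 294 CPM) and C1qc (165 against 255), which were called higher. Tyrobp (125 against 87.2) and Cd68 (3.88 against 1.33) had lower means and were not called, and Aif1 (10.5 against 0.0456) did not pass the filter on low counts. Bone markers summed to 1936 to 2456 CPM against 1074 to 1693, while Schwann cell, erythroid and neutrophil sums overlapped. Erythroid sums were 6400, 41372 and 21417 CPM in control and 7215, 3479 and 16706 in degenerated libraries. Neutrophil sums were 250, 12842 and 6375 against 599, 1840 and 4490, so both varied widely within each group. The part of these cell types in the member values was not tested.

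**Figure D5:**
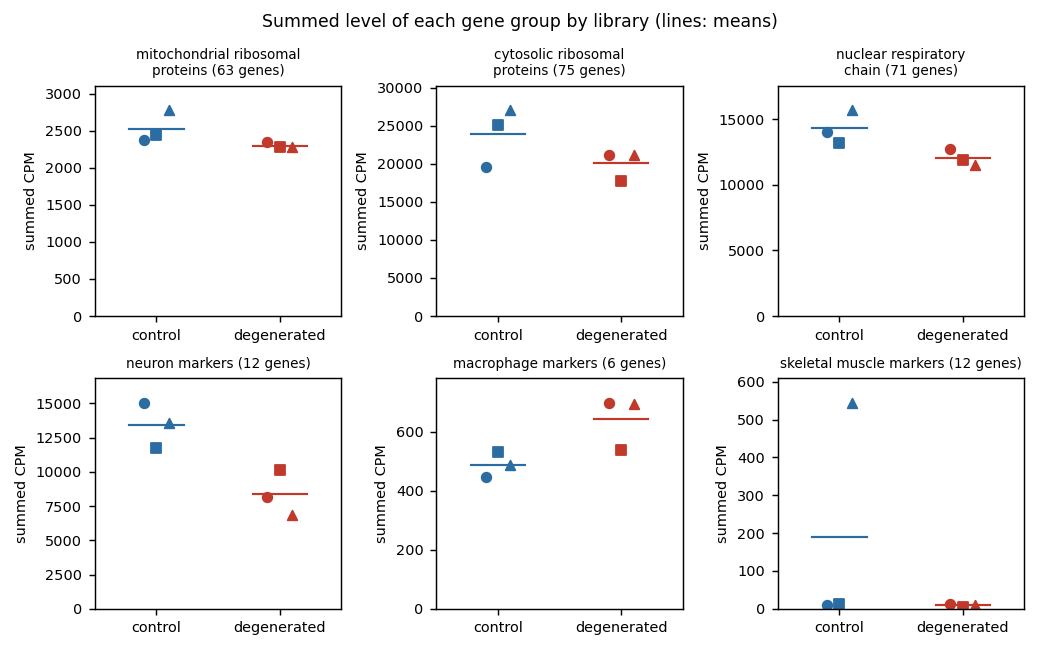
Summed CPM of 6 gene groups, a point per library with a line at each group's mean. The members' sum falls within 2277 to 2347 in degenerated and 2381 to 2777 in control libraries, and control replicate 3, the upright blue triangle, is highest for the members and the 1 library with skeletal muscle markers at 544 CPM.

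Other genes of mitochondrial translation, from lists fixed beside the members, gave 1 call. Among other proteins of the same ribosome, Aurkaip1 had CPM of 60.0, 76.9 and 88.0 in control and 59.8, 54.4 and 59.4 in degenerated libraries (log2 fold change -0.37, SE 0.18, adjusted p = 0.568, edgeR), Ptcd3 had -0.15 (SE 0.14), and Dap3 0.063 (SE 0.50). Chchd1 and Gadd45gip1 were not analysed here. The 12S rRNA of the small subunit, mt-Rnr1, had CPM of 1139, 860 and 1363 against 1189, 797 and 1156, which overlapped (log2 fold change -0.098, SE 0.23), and mt-Rnr2 was not analysed here.

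Pars2, the mitochondrial prolyl-tRNA synthetase, was the 1 called gene of these lists, where 2.01% of all genes tested were called higher. Its CPM were 2.78, 2.26 and 2.74 in control and 11.4, 13.4 and 11.997 in degenerated libraries, a separation far wider than the spread within groups. It rose with a log2 fold change of 2.24 (SE 0.27, adjusted p = 0.105, edgeR), from 3 of its 4 transcripts, none of them principal. Of 18 tested mitochondrial tRNA synthetase genes 11 were negative, with a median of -0.12.

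The remaining lists held no call, where 2.01% of all genes tested were called higher and 0.715% lower. Of 17 tested assembly factors 9 were negative (median -0.11), and the smallest p was that of the GTPase Noa1, with CPM of 1.32, 1.27 and 0.957 against 3.63, 2.32 and 2.05 (log2 fold change 1.17, SE 0.38, adjusted p = 0.421, edgeR). Of 11 translation factors 7 were negative (median -0.11), with the smallest p in the elongation factor Tsfm (-0.41, SE 0.22, adjusted p = 0.614, edgeR). Of 13 genes of mitochondrial DNA and RNA synthesis 8 were negative (median -0.12), with the smallest p in the polymerase Polg, whose CPM of 9.20, 13.2 and 11.3 stood against 53.8, 12.9 and 20.3 (1.37, SE 0.56, adjusted p = 0.516, edgeR). Of the 5 tested mitochondrial messenger RNAs 3 were negative (median -0.11), with mt-Nd1 at -0.24 (SE 0.18). Of 7 hearing loss genes of mitochondrial translation, Mrps2 and Mrps7 among them, 5 were negative, with a median of -0.061.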

How the data were processed

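RNA of the cochlear modiolus was sequenced in 6 libraries, 3 per group. The authors aligned reads with Hisat2 and evaluated expression with StringTie per the methods, while the submitters' processing notes name Bowtie 0.12.2 with mm8 and mm10. How reads were counted was not found in either. The deposited unit is the whole-number count per Ensembl transcript, without normalization, for 65535 transcripts, 46.0% of those annotated. Of these, 65272 matched GENCODE M21 (GRCm38), and the 263 others held 0.125% of counts. Libraries totalled 12480876 to 15549319 counts. Counts were summed per gene and compared between groups by the robust quasi-likelihood F test of edgeR 4.0.16 (R 4.3.3) after filterByExpr and TMM scaling (factors 0.983 to 1.02), without covariates, with all genes in the fit and Benjamini-Hochberg adjustment over them. SE is the fold change over the square root of F. CPM use TMM factors. The test was checked on simulated counts. Libraries of 1 group correlated at 0.913 to 0.948 (log2 of CPM plus 1, across genes), and the common biological coefficient of variation was 0.488.

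Alternatives were voom in limma 3.58.1, DESeq2 1.42.0, the exact test of edgeR, RLE and upper-quartile normalization, no filter, a mean count of 10, only genes with every transcript listed, only protein-coding transcripts, leaving out each library, and a block for the replicate number. Counting only APPRIS principal transcripts and a mean of 10 CPM were added after the data were seen. Members and lists were chosen with earlier results of these data known. Named members are those called, the 10 lower and 5 higher with the smallest p, the 5 highest per length in control, the hearing loss genes and those whose subunit differs from the name, and in other lists the called gene and that with the smallest p.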

Additional observations from a re-analysis of the deposited data

How the results depend on the processing

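No member was called higher under any alternative, and the members' median log2 fold change stayed between -0.17 and -0.10 throughout. The count of members called lower was 2 with DESeq2 (Mrpl20 and Mrps9), where 2.17% of all genes were. It was 0 with limma-voom (0.758% of all genes), upper-quartile normalization (0.737%), a mean count of 10 (0.683%), only genes with every transcript listed (1.53%), only principal transcripts (0.722%) and a mean of 10 CPM (0.926%), and 0 to 1 with 1 library left out (0.520% to 1.08%). Members whose groups did not overlap numbered 1 among the 4 with every transcript listed, 8 of 40 with only principal transcripts, and 16 to 22 with 1 library left out. Over all genes 18.4% and 18.7% did not overlap in the first settings, and 24.9% to 33.1% with 1 library left out, near the members' 25% to 34.4%. These shares pool both directions. With 1 library left out, 13 to 19 members were lower without overlap, where 11.3% to 15.9% of all genes were. From 2 to 7 members were higher, where 13.4% to 17.2% of all genes were. Mrps36 turned negative with limma-voom (-0.17) and lay between -0.60 and 0.37 with 1 library left out, turning at control replicates 1 (-0.063) and 2 (-0.16) and degenerated replicate 3 (-0.60). With 1 library left out, Mrps6 lay between -0.19 and 0.14 and Mrps7 between -0.13 and 0.022, both positive without control replicate 3, and Mrpl58 between -0.14 and 0.043, positive without degenerated replicate 2. The cause was not tested. Of the values of named members, 318 kept direction and side of the threshold, 10 lost the call, 3 gained one and 8 reversed.

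Correlations of same-numbered libraries, after each group's mean was removed, were 0.16, -0.090 and 0.067. Differently numbered libraries were not compared, so these values cannot show whether replicate numbers pair the samples. With the replicate number as a block 0 members were called lower, where 0.411% of all genes were (Mrpl20 -2.25), and Mrps36 was -0.14. The common coefficient of variation of 0.488 was taken over all genes tested, not over the members. The SE of tested members ran from 0.10 (Mrpl10) to 0.85 (Mrps24), which limits the calling of small changes. For 13 members no transcript was listed.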
